A study of Mus musculus with 14 samples.

Results

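The corticosteroid receptors and the genes that report on them were followed in liver and kidney of mice on a normal diet or on high salt. The 8 genes were chosen by name, though with earlier results of these data known. They were the receptors Nr3c1 and Nr3c2, the kidney enzyme Hsd11b2, and the hormone targets Sgk1, Tsc22d3, Fkbp5, Zbtb16 and Tat. All 8 had a row among the 20203 genes of the kidney table, and 7 had a row among the 19660 genes of the liver table, where Hsd11b2 was not listed. Every listed gene had at least 10 counts summed over its table's libraries, so a gene that is not listed was not shown to be silent. All 7 were tested in liver. In kidney 7 were tested, as Tat did not pass the filter on low counts there.

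The animals were adult male transgenic mice of 12 weeks, all of the genotype Hap -6A, which is a promoter haplotype of the human angiotensinogen gene. Mice without the transgene and mice with another haplotype were not analysed here, and the labels give no strain, salt dose or length of treatment. Liver was sampled in 4 libraries on the normal diet (numbered 1 to 4) and 4 on high salt (columns HS5 to HS8, whose numbers match no sample title). Kidney was sampled in 3 libraries on each diet. The labels do not say whether liver and kidney came from the same mice, or that each library came from its own animal. The p-values therefore measure the spread between these libraries.

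Corticosteroid hormones enter cells and bind receptors held ready by the Hsp90 chaperones, and the bound receptor moves to the nucleus and regulates genes there. Nr3c1, the glucocorticoid receptor, is present in nearly all cells. Nr3c2, the mineralocorticoid receptor, acts in the distal nephron, where aldosterone drives the uptake of sodium. It binds glucocorticoids as well as aldosterone, and Hsd11b2 protects it there by converting active glucocorticoid to an inert form. Salt loading is known to lower aldosterone, so the question put to the kidney was whether genes of the aldosterone type were lower on high salt.

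Both receptors bind the same DNA palindrome, here searched as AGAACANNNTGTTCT, which reads the same on both strands. RefSeq promoter windows (GRCm38.p6, 250 bases before to 50 bases after a start site) matched 5 of the 8 genes, namely Nr3c2, Tat, Sgk1, Fkbp5 and Tsc22d3, with 12 windows. The palindrome was found in 3 of all 32851 windows (0.00913%), and 1 of these 3 belonged to Sgk1. It lies 189 to 175 bases before a start site of Sgk1, at chr10:21993701-21993715 on the plus strand, in no exon of the gene but inside the span of its longer transcripts. The half-site AGAACA or TGTTCT, on either strand and counted also inside the palindrome, was present in 19.0% of all windows and in 4 of the 12 windows of these genes. The Sgk1 stretch is shown because it holds the full palindrome (capitals), and the Tsc22d3 stretch because it holds a half-site only (capitals). The Sgk1 bases are chr10:21993640-21993889, plus strand. The Tsc22d3 bases are chrX:140600660-140600772, minus strand, which leaves out the part inside an annotated exon.

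Sgk1: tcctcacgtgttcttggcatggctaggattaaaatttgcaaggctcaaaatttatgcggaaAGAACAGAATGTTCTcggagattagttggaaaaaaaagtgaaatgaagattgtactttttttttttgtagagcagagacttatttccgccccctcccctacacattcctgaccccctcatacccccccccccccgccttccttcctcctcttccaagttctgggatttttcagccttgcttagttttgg

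Tsc22d3: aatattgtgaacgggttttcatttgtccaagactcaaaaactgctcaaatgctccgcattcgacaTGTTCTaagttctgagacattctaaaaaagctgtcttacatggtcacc

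A match of letters describes the window, and no binding was measured in these libraries. As placed by GENCODE M21 on GRCm38, Nr3c1 lies on chromosome 18 at 39410545 to 39519421 and Nr3c2 on chromosome 8 at 76899442 to 77245012. Hsd11b2 lies on chromosome 8 at 105518755 to 105523988, and Tat on the same chromosome at 109990437 to 109999803. Sgk1 lies on chromosome 10 at 21882184 to 21999903, Tsc22d3 on X at 140539528 to 140600659, Fkbp5 on chromosome 17 at 28399094 to 28517527 and Zbtb16 on chromosome 9 at 48654297 to 48836222. The starts equal those in the deposited tables, and the counts are per gene.

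Liver libraries held 37267800 to 51487400 counts and kidney libraries 16046100 to 22004900. Levels are given in CPM, counts per 1000000 after trimmed-mean scaling within a tissue. Some libraries stood apart. Transcripts of the mitochondrial genome took 2.30% and 2.06% of the counts in normal diet liver libraries 1 and 2, against 11.3% to 29.6% in the other liver libraries. In the same 2 libraries the 25% of genes with the longest exons lay below the 25% with the shortest, by 0.55 on the log2 scale relative to each gene's liver mean. That index was 0.02 to 0.31 in the other liver libraries. In kidney it was 0.61 in normal diet library 1 and -0.29 to 0.21 in the other 5. HS5 and HS6 were unusually alike, for example at 31.4 and 32.4 CPM for Fkbp5 and at 945 and 944 CPM for Tat. For some of the 8 genes, values that rest on these libraries are given with and without them. Hepatocyte markers summed to 57891 to 110257 CPM in liver and 844 to 1634 CPM in kidney. The 8 tubule and glomerulus markers, all listed in both tissues, summed to 25367 to 59159 CPM in kidney and 29.4 to 134 CPM in liver. By these sums the tissue labels match their markers. The glomerulus marker Nphs1 did not follow. Its means in liver and kidney were 55.4 and 41.0 CPM on the normal diet and 61.3 and 26.7 CPM on high salt.

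**Figure D1:**
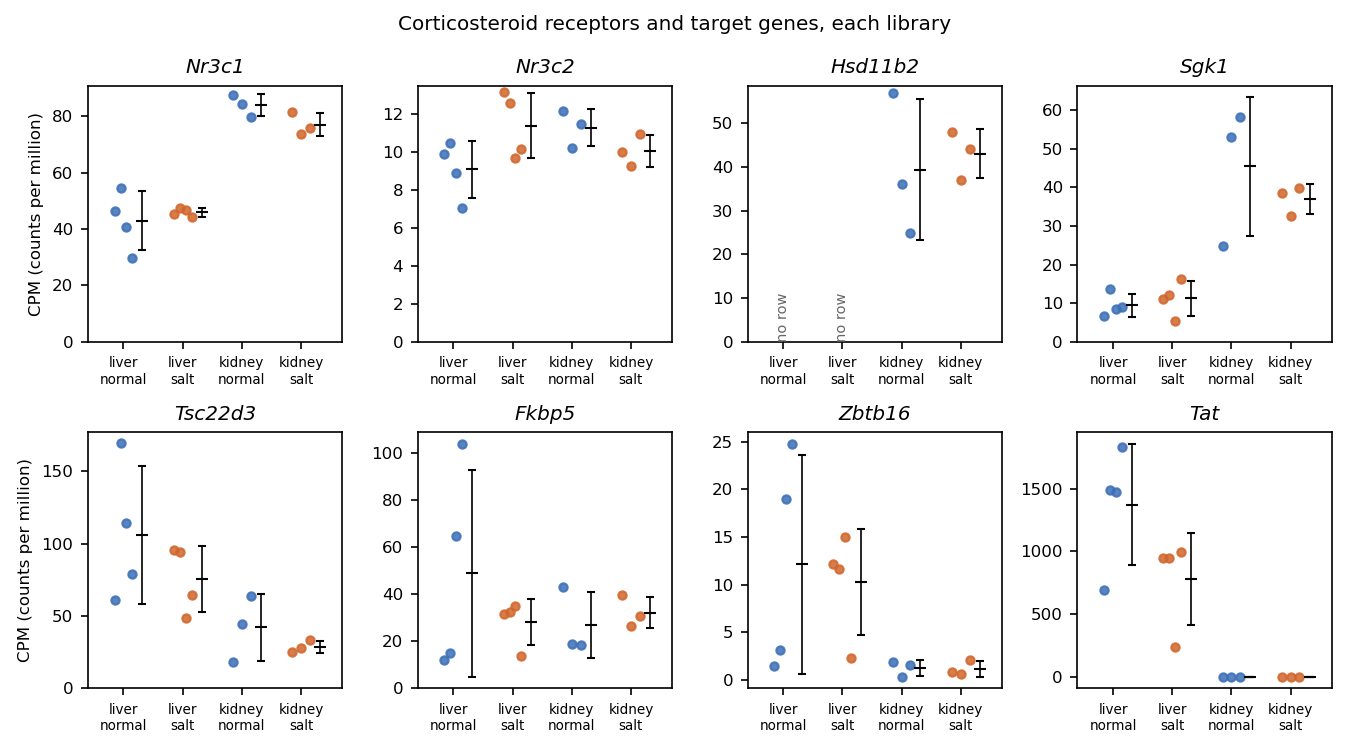
CPM of the 8 genes in every library (points; blue normal diet, orange high salt), with the mean and SD of each group at its right (bars; 4 liver and 3 kidney libraries per group); each panel has its own linear axis. The diets overlap in every panel, and the targets scatter more within a diet than the receptors do.

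Neither receptor differed between the diets beyond the spread of the libraries, in kidney or in liver. In kidney Nr3c1 stood at 87.6, 84.4 and 79.8 CPM in normal diet libraries 1 to 3 and at 81.6, 73.7 and 75.8 CPM in high salt libraries 1 to 3. The groups overlapped only through high salt library 1, which lay above normal diet library 3. The normal diet mean was 83.9 ± 3.94 CPM and the high salt mean 77.0 ± 4.13 CPM (SD, n = 3 each). The log2 fold change was -0.12 with a 95% interval of -0.53 to 0.28 (SE 0.18, edgeR adjusted p = 0.9996). Nr3c2 stood at 12.2, 10.2 and 11.5 CPM on the normal diet and at 10.004, 9.26 and 10.96 CPM on high salt. Its values interleaved between the diets, and the log2 fold change was -0.17 with an interval of -0.60 to 0.27.

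In liver Nr3c1 stood at 46.4, 54.7, 40.9 and 29.8 CPM in normal diet libraries 1 to 4 and at 45.3, 47.5, 46.8 and 44.2 CPM in HS5 to HS8. All 4 high salt values fell inside the range of the normal diet. Its log2 fold change was 0.10 (interval -0.31 to 0.50, edgeR adjusted p = 0.789), and it was -0.055 without normal diet library 4, the lowest of the 8. Liver Nr3c2 stood at 9.91, 10.5, 8.90 and 7.06 CPM on the normal diet and at 13.2, 12.6, 9.71 and 10.2 CPM on high salt. HS5 and HS6 lay above every normal diet library, and HS7 and HS8 lay among them. Its log2 fold change of 0.33 (SE 0.18, interval -0.07 to 0.73) did not pass (edgeR adjusted p = 0.321).

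Per kilobase of exon, Nr3c1 was the more abundant receptor in both tissues. On the normal diet it stood at 10.9 ± 0.51 CPM per kilobase in kidney (SD, n = 3) and at 5.59 ± 1.36 in liver (SD, n = 4), where Nr3c2 stood at 1.75 ± 0.15 and 1.40 ± 0.23. The spread of the receptors was small in kidney. The pooled SD within a diet was 0.07 on the log2 scale for Nr3c1 and 0.12 for Nr3c2, and 1.16% and 5.27% of the 15847 genes tested had a smaller one. The median over all kidney genes was 0.32. In liver 40.4% of genes had a smaller SD than Nr3c1 and 29.8% a smaller one than Nr3c2. These shares are not adjusted for the level of a gene, which affects its spread.

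Hsd11b2, the enzyme that guards the mineralocorticoid receptor, did not separate the diets. It stood at 56.8, 36.2 and 24.98 CPM on the normal diet and at 48.0, 36.9 and 44.2 CPM on high salt in kidney. The 3 high salt libraries lay within the range of the normal diet, whose libraries differed 2.27-fold. Its log2 fold change was 0.13 (interval -0.56 to 0.82, edgeR adjusted p = 0.9996). It was 0.50 without normal diet library 1 and -0.11 without normal diet library 3, so the sign rested on single libraries. Per kilobase Hsd11b2 was the highest of the 8 genes in kidney, at 21.4 ± 8.77 CPM per kilobase with the normal diet and 23.4 ± 3.06 with high salt (SD, n = 3 each).

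Sgk1, a kinase that aldosterone induces and that keeps the epithelial sodium channel at the cell surface, had a lower mean in kidney on high salt, by less than the spread of the libraries. It stood at 24.9, 53.1 and 58.3 CPM on the normal diet and at 38.5, 32.6 and 39.8 CPM on high salt. All 3 high salt libraries lay below normal diet libraries 2 and 3 and above normal diet library 1. The means were 45.4 ± 18.0 and 37.0 ± 3.81 CPM (SD, n = 3 each). The log2 fold change was -0.30 (SE 0.31, interval -1.01 to 0.42, edgeR unadjusted p = 0.369, adjusted p = 0.9996). Without normal diet library 1 it was -0.59 (adjusted p = 0.233), and without normal diet library 3 it was -0.08.

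Tsc22d3, known as GILZ, a leucine zipper protein that both receptors induce and that mediates anti-inflammatory effects of glucocorticoids, followed the same order of libraries in part. It stood at 18.1, 44.4 and 64.0 CPM on the normal diet and at 25.1, 27.6 and 33.5 CPM on high salt in kidney. Again normal diet library 1 was the lowest of the 6 and normal diet libraries 2 and 3 the highest. For Tsc22d3 the log2 fold change was -0.55 (SE 0.40, interval -1.48 to 0.37, edgeR adjusted p = 0.9996). It was -0.92 without normal diet library 1 (adjusted p = 0.191) and -0.12 without normal diet library 3.

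Fkbp5, a co-chaperone of the receptors that glucocorticoids induce and that lowers the affinity for hormone, ran the other way across the kidney libraries. It stood at 42.9, 18.9 and 18.4 CPM on the normal diet and at 39.4, 26.2 and 30.6 CPM on high salt. Normal diet library 1 was the highest and normal diet library 3 the lowest, and the order of all 6 libraries was the same as that of Hsd11b2. For Fkbp5 the log2 fold change was 0.26 (interval -0.55 to 1.07, edgeR adjusted p = 0.9996), and 0.78 without normal diet library 1 (adjusted p = 0.210). Zbtb16, a zinc finger repressor known to respond to glucocorticoids, was low in kidney, at 1.90, 0.35 and 1.60 CPM on the normal diet and at 0.80, 0.63 and 2.14 CPM on high salt. Its diets overlapped, with a log2 fold change of -0.10 (interval -1.64 to 1.43). Tat, tyrosine aminotransferase, was at 0, 0.47 and 0.19 CPM and at 0.13, 0 and 0 CPM, too low to test.

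**Figure D2:**
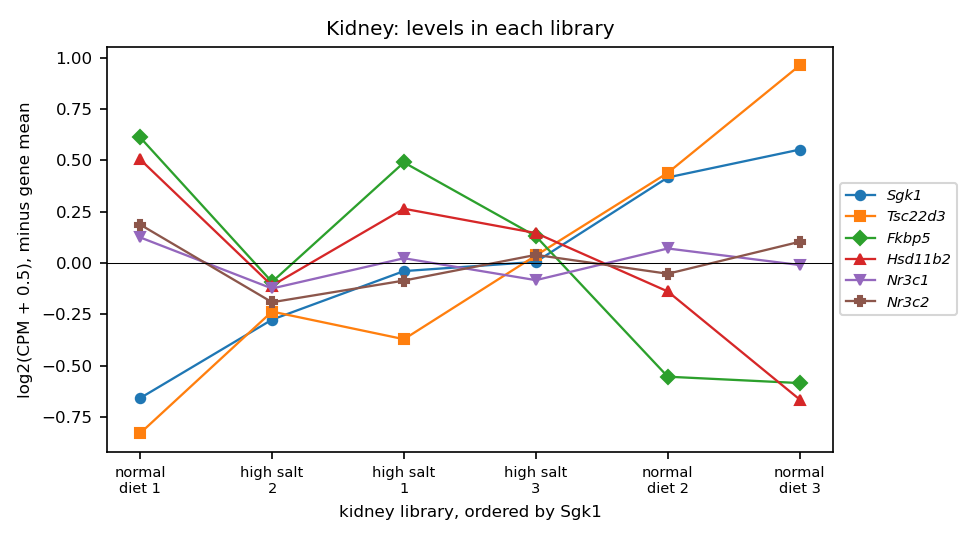
Kidney levels of 6 genes in the 6 libraries, ordered by Sgk1, as log2(CPM + 0.5) minus each gene's mean over the libraries; lines join the libraries for reading only. Sgk1 and Tsc22d3 are lowest in normal diet library 1 and highest in normal diet library 3, Fkbp5 and Hsd11b2 are highest in library 1 and lowest in library 3, and the receptors stay near 0.

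Thus 0 of the 7 genes tested passed in kidney with edgeR, 0 had an unadjusted p under 0.05, and 0 had diets that did not overlap. Over all 15847 kidney genes these shares were 0%, 2.01% and 6.92%. DESeq2 also called 0 of the 7. None was called in any of the 16 alternative settings tried in kidney in which it was tested, which were 15 for Hsd11b2 and for Zbtb16. The intervals above still allow changes of about 1 on the log2 scale for the targets. Normal diet library 1, on which several of these values rest, had the highest length index (0.61) and the highest mitochondrial share (41.2%). Its summed tubule markers were the lowest (25367 CPM), against 56864 and 59159 CPM in the other normal diet libraries and 32952, 58795 and 40789 CPM in high salt libraries 1 to 3. Most of each sum was Kap, an abundant proximal tubule transcript. Without Kap, library 1 was the highest at 5426 CPM, against 3401 and 3485 CPM in normal diet libraries 2 and 3 and 4451, 3423 and 4460 CPM on high salt. Immune markers, 14 of 14 listed, summed to 97.8, 256 and 218 CPM on the normal diet and to 132, 157 and 263 CPM on high salt. The part of these differences in the results was not tested.

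Other genes of the kidney aldosterone pathway gave no call in kidney either. The list of 22 holds sodium channel subunits, their regulators, and the transporters and kinases of the distal nephron. All 22 were tested in kidney, and 7 had a higher and 15 a lower estimate on high salt, with a median log2 fold change of -0.05. Over all kidney genes the median was -0.02 and 53.7% were lower. With upper quartile scaling the split was 10 higher and 12 lower, and without normal diet library 1 it was 11 and 11. No gene of the list passed an edgeR adjusted p of 0.05 in kidney, 1 had an unadjusted p under 0.05, and 4 had diets that did not overlap. Over all 15847 kidney genes these shares were 0%, 2.01% and 6.92%. In liver 16 of the 22 were tested, with 15 higher, 1 lower and a median of 0.29, and 0 passed with edgeR. Over all liver genes the median was -0.02, 52.0% were lower and 1.00% passed. Without normal diet liver libraries 1 and 2 the split was 10 higher and 7 lower, with a median of 0.04. There 1 gene of the list was called, as were 52 of all 15885 genes.

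In kidney the 3 subunits of the epithelial sodium channel had estimates on both sides of 0. Scnn1a, the alpha subunit, which aldosterone induces in kidney, stood at 55.1, 28.9 and 23.4 CPM on the normal diet and at 27.5, 18.8 and 23.9 CPM on high salt. The groups overlapped, and its log2 fold change was -0.61 (SE 0.33, edgeR unadjusted p = 0.101, adjusted p = 0.9996). It rested on normal diet library 1, without which it was -0.16 (adjusted p = 0.713). Scnn1b and Scnn1g had log2 fold changes of 0.12 and -0.03, with overlapping diets. The smallest unadjusted p of the list in kidney was that of Kcnma1, the large-conductance potassium channel. It stood at 2.30, 1.41 and 1.65 CPM on the normal diet and at 0.98, 0.63 and 0.59 CPM on high salt, with no overlap and a log2 fold change of -1.27 (unadjusted p = 0.0117, edgeR adjusted p = 0.9996).

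The other genes of the list whose diets did not overlap in kidney were Stk39, Kcnj1 and Fxyd4, of which Kcnj1 is named here after its value was seen. Stk39, the kinase that activates the sodium chloride cotransporter, stood at 21.3 to 24.8 CPM on the normal diet and at 17.1 to 19.9 CPM on high salt. Kcnj1, the secretory potassium channel, stood at 240 to 269 CPM and at 171 to 226 CPM. Fxyd4, a sodium pump regulator of the collecting duct, stood at 3.75 to 5.39 CPM on the normal diet and at 5.94 to 6.36 CPM on high salt. Their log2 fold changes were -0.33, -0.32 and 0.42, and none passed (edgeR adjusted p = 0.9996 each). Per1, a clock gene that aldosterone induces, had a log2 fold change of -0.19 in kidney.

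Markers of the distal nephron, where these genes act, were read beside them. The markers, 10 of 10 listed, summed to 726 to 784 CPM on the normal diet and to 538 to 669 CPM on high salt, with no overlap. Of the 10, 6 had a lower and 4 a higher estimate, with a median of -0.03. The lowest p among them was that of Calb1, a calcium-binding protein of the distal tubule (log2 fold change -0.55, unadjusted p = 0.0210, edgeR adjusted p = 0.9996). The shift of the sum rested on Calb1, at 374 to 421 CPM and at 246 to 291 CPM. The other 9 markers summed to 344 to 411 CPM on the normal diet and to 274 to 423 CPM on high salt, and overlapped. In whole tissue, fewer cells of a type and less RNA per cell cannot be told apart, and the part of the Calb1 difference in the aldosterone list was not tested. Of 9 adrenal markers only Star and Akr1b7 were listed in kidney, with a sum of 2.59 to 4.03 CPM, while Cyp11a1, Cyp11b1, Cyp11b2 and Cyp21a1 were not listed.

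In liver Fkbp5 and Zbtb16 varied widely between libraries of 1 diet, and neither differed between the diets beyond that spread. Fkbp5 stood at 11.8, 14.7, 64.6 and 104 CPM in normal diet libraries 1 to 4 and at 31.4, 32.4, 34.8 and 13.5 CPM in HS5 to HS8. Normal diet libraries 1 and 2 were among the 3 lowest of the 8 and normal diet libraries 3 and 4 the 2 highest, an 8.77-fold range within the normal diet. Zbtb16 stood at 1.52, 3.19, 19.0 and 24.8 CPM on the normal diet and at 12.1, 11.6, 15.03 and 2.26 CPM on high salt. Its order of libraries was that of Fkbp5 except that HS5 and HS6 changed places, and its range within the normal diet was 16.3-fold.

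The diet effects had correspondingly wide intervals. The log2 fold change of Fkbp5 was -0.80 (SE 0.63, interval -2.21 to 0.61, edgeR adjusted p = 0.481). It was -1.58 without normal diet libraries 1 and 2 (adjusted p = 0.103) and -0.12 without normal diet library 4. Zbtb16 had -0.24 (SE 0.81, interval -2.04 to 1.56), and -1.09 without normal diet libraries 1 and 2 (adjusted p = 0.399). With genes of the mitochondrial genome left out, the ranges within the normal diet were still 8.68-fold and 16.1-fold. Fkbp5 has 9468 exon bases, more than 90.2% of liver genes, and normal diet libraries 1 and 2 had the lowest length index. HS8 was as low for Fkbp5 and Zbtb16 with an index of 0.18. The part of gene length in this range was not tested.

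Tat, the liver enzyme that starts the breakdown of tyrosine and a classical glucocorticoid target, had a lower mean on high salt. It stood at 692, 1489, 1469 and 1835 CPM on the normal diet and at 945, 944, 234 and 995 CPM on high salt. Normal diet libraries 2 to 4 lay above all high salt libraries, while library 1 lay below 3 of them. The means were 1371 ± 483 and 780 ± 364 CPM (SD, n = 4 each). The log2 fold change of -0.81 (SE 0.45, interval -1.81 to 0.18) did not pass (edgeR unadjusted p = 0.0986, adjusted p = 0.320). It was -0.52 without HS7 and -0.92 with HS5 and HS6 summed.

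Tsc22d3 in liver stood at 61.2, 169, 114.4 and 78.8 CPM on the normal diet and at 95.9, 94.0, 49.0 and 64.3 CPM on high salt. Its diets overlapped, with a log2 fold change of -0.48 (SE 0.33, interval -1.22 to 0.25, edgeR adjusted p = 0.417). Sgk1 stood at 6.70, 13.7, 8.62 and 9.08 CPM on the normal diet and at 11.1, 12.1, 5.40 and 16.3 CPM on high salt. Its log2 fold change was 0.24 (interval -0.49 to 0.97). For Tat, Tsc22d3 and Sgk1 alike, HS7 was the lowest library of the 8 and normal diet library 1 the next.

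The targets thus fell into 2 patterns across the liver libraries, 1 shared by Fkbp5 and Zbtb16 and 1 in which HS7 and normal diet library 1 were lowest. This was read from 8 libraries and was not tested. The pooled SD within a diet was 1.16 on the log2 scale for Fkbp5, 1.502 for Zbtb16 and 0.84 for Tat, and 99.1%, 99.6% and 97.6% of the 15130 liver genes had a smaller one. Tsc22d3 and Sgk1 had 0.56 and 0.54 (89.9% and 88.4% of genes smaller), and the median of all liver genes was 0.30.

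**Figure D3:**
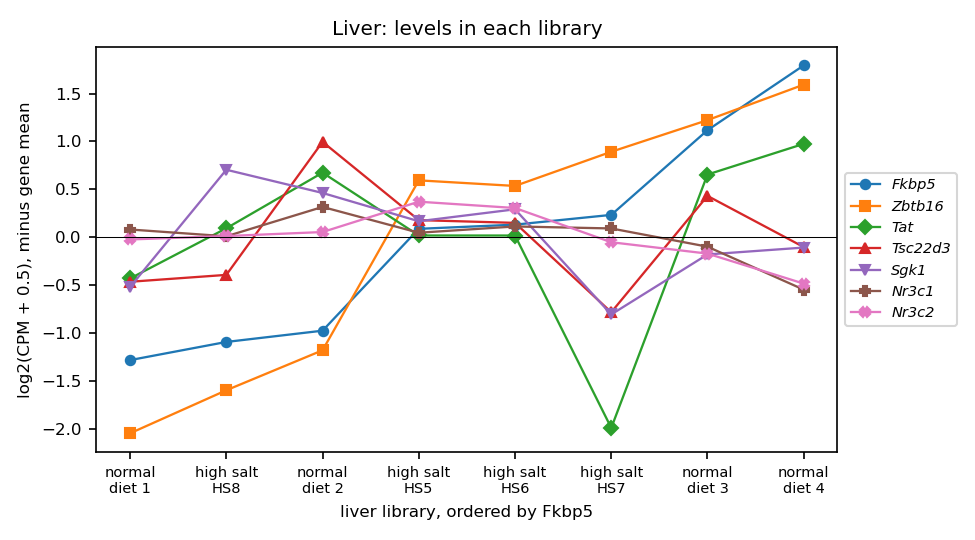
Liver levels of the 7 listed genes in the 8 libraries, ordered by Fkbp5, as log2(CPM + 0.5) minus each gene's mean over the libraries; lines join the libraries for reading only. Fkbp5 and Zbtb16 climb together from normal diet library 1 to normal diet library 4, Tat, Tsc22d3 and Sgk1 dip at HS7, and the receptors stay within a narrow band.

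In liver 0 of the 7 genes passed with edgeR, 0 had an unadjusted p under 0.05, and 0 had diets that did not overlap. Over all 15130 liver genes these shares were 1.00%, 21.2% and 12.5%. DESeq2 also called 0 of the 7, as did each of the 19 alternative settings tried in liver, over the genes each tested. The difference between the diet effects of liver and kidney was tested in 1 fit of all 14 libraries, and it passed for 0 of 7 genes, as for 0% of all 16633 genes. The estimate for Fkbp5 was -1.01 (SE 0.83, liver minus kidney, edgeR adjusted p = 0.686) and that for Nr3c2 was 0.49 (SE 0.28, adjusted p = 0.556). No unadjusted p of the 7 was under 0.05.

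**Figure D4:**
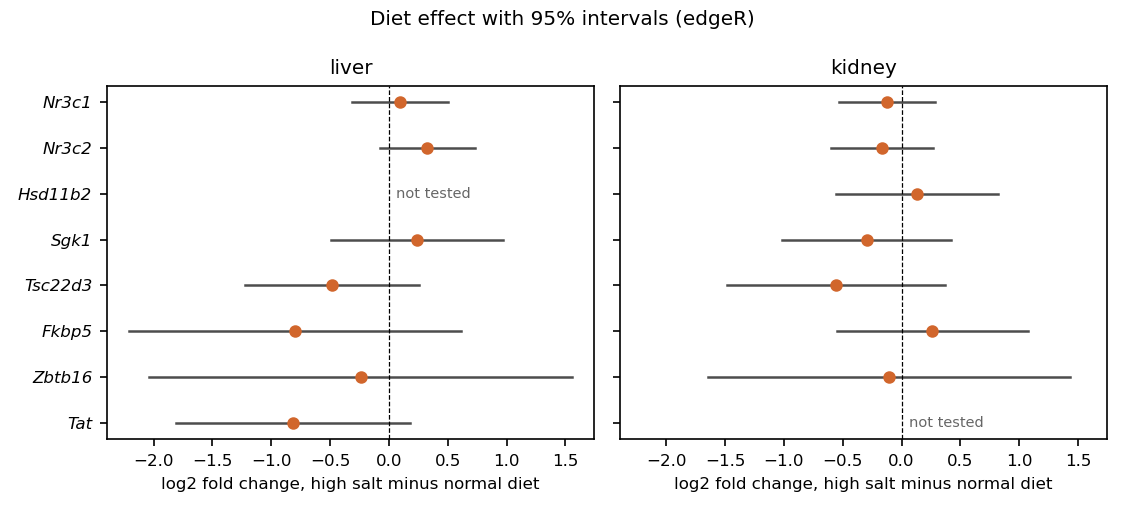
Log2 fold change, high salt minus normal diet, of each gene in liver and kidney (points) with the 95% interval of edgeR's fit (lines; 4 against 4 liver and 3 against 3 kidney libraries). Every interval holds 0, and the intervals of Fkbp5 and Zbtb16 in liver are the widest there, from -2.21 to 0.61 and from -2.04 to 1.56.

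Other glucocorticoid targets in liver mostly had lower estimates on high salt, and edgeR called none of them. Of 30 genes, all tested, 7 had a higher and 23 a lower estimate on high salt, with a median log2 fold change of -0.46. The median over all liver genes was -0.02, with 52.0% lower. The split was 3 and 27 without normal diet libraries 1 and 2, and 12 and 18 without normal diet library 4, where the median was -0.12. With edgeR 0 of the 30 passed, 8 had an unadjusted p under 0.05 and 6 had diets that did not overlap. Over all 15130 liver genes these shares were 1.00%, 21.2% and 12.5%. Markers of other kinds also had lower estimates in liver. Of the hepatocyte markers 4 of 6 were lower (median -0.34), although their sum was 57891 to 85729 CPM on the normal diet and 91580 to 110257 CPM with high salt. Of the immune markers tested 9 of 12 were lower (median -0.27), with sums of 98.4 to 230 and 90.5 to 143 CPM. Their part in the list's values was not tested.

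Among these, Ddit4, a stress-induced inhibitor of mTORC1, stood at 4.90, 8.91, 4.09 and 16.1 CPM on the normal diet and at 2.31, 2.67, 1.81 and 3.16 CPM on high salt. No high salt library reached a normal diet one, and the log2 fold change was -1.77 (SE 0.42, edgeR adjusted p = 0.0754). Gpt, alanine aminotransferase, stood at 204 to 333 CPM and at 137.8 to 163 CPM (log2 fold change -0.80, edgeR adjusted p = 0.0761). DESeq2 called both, with adjusted p = 0.00119 for Ddit4 and 0.00590 for Gpt. It called 1084 of all liver genes, against 152 with edgeR. Mt1, a metallothionein, rested on normal diet library 4, at 1037 CPM against 13.1 to 26.6 CPM in libraries 1 to 3 and 2.70 to 4.25 CPM on high salt. Its log2 fold change was -6.25 (edgeR adjusted p = 0.0783), and it was -2.47 without that library, when it passed (edgeR adjusted p = 0.00929). Without that library 409 of all 15270 genes tested passed.

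Other named targets did not pass either. Tdo2, which starts tryptophan breakdown, had a log2 fold change of -0.83 in liver (edgeR adjusted p = 0.169) and stood at 822 to 2113 CPM on the normal diet and 726 to 1097 CPM on high salt. Without normal diet libraries 1 and 2 its value was -0.36. Pck1, the gluconeogenic enzyme, had -0.23 (edgeR adjusted p = 0.617). Per1 had 0.32, and -0.21 without normal diet libraries 1 and 2. In kidney the same list of targets had 28 genes tested, 13 higher and 15 lower. Their median was -0.01 and 0 were called, against -0.02 and 0% over all kidney genes. Upper quartile scaling turned that split to 15 higher and 13 lower, and without normal diet library 1 it was 17 higher and 11 lower, with a median of 0.17. The lowest p of the list in kidney was that of Mt2 (log2 fold change 0.65, unadjusted p = 0.0282, edgeR adjusted p = 0.9996).

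The supply of hormone and the receptor's partners were read in the same way. Among 12 genes that make, carry or clear corticosteroids, 11 were tested in each tissue and 0 were called by edgeR. In kidney 3 of the 11 had an unadjusted p under 0.05 and 2 had diets that did not overlap, and in liver 1 and 1. Over all kidney genes the shares called, under 0.05 and without overlap were 0%, 2.01% and 6.92%. Over all liver genes they were 1.00%, 21.2% and 12.5%. Hsd11b1, which regenerates active glucocorticoid, had a log2 fold change of -0.07 in liver and 0.41 in kidney, and Serpina6, the carrier of corticosteroids in blood, had 0.15 in liver. In liver the lowest p values were those of Srd5a2 (1.16), Abcb1a (0.79) and Cyp3a11 (-1.22). DESeq2, which called 1084 of all liver genes, called Srd5a2 (adjusted p = 0.0463). Abcb1a was 1.24 without normal diet library 3 (edgeR adjusted p = 0.0690) and 0.47 without libraries 1 and 2. Cyp3a11 passed without normal diet library 4 (-1.62, edgeR adjusted p = 0.0364), as did 409 of all 15270 genes. It was -0.40 without libraries 1 and 2. In kidney Srd5a1, a steroid reductase, stood at 8.96 to 10.7 CPM on the normal diet and at 17.3 to 24.7 CPM on high salt, with no overlap (log2 fold change 1.11, unadjusted p = 0.000703, edgeR adjusted p = 0.9996). DESeq2, which called 13 of all kidney genes, called it with adjusted p = 0.0385. Abcb1b, an efflux pump that carries steroids, stood at 3.85 to 5.97 and at 9.96 to 18.0 CPM (log2 fold change 1.39, unadjusted p = 0.00167, edgeR adjusted p = 0.9996).

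Of 18 chaperones and coregulators, all tested, 3 had a higher and 15 a lower estimate in kidney (median -0.14, 0 called). There 2 had an unadjusted p under 0.05 and 3 had diets that did not overlap. Over all kidney genes these shares were 2.01% and 6.92%, and 0% were called. Without normal diet library 1 the split was 11 higher and 7 lower. Hsp90aa1, the inducible Hsp90 that holds the receptors, stood at 413, 321 and 450 CPM on the normal diet and at 258, 274 and 290 CPM on high salt. The diets did not overlap, and the log2 fold change was -0.53 (edgeR unadjusted p = 0.0379, adjusted p = 0.9996). In liver 11 were higher and 7 lower (median 0.22, 0 called), and 9 and 9 without normal diet libraries 1 and 2. Of the 18 in liver, 6 had an unadjusted p under 0.05 and 6 had diets that did not overlap. Over all liver genes these shares were 21.2% and 12.5%, and 1.00% were called. On the log2 scale the estimate there was 0.72 for the coregulator Nrip1 (edgeR adjusted p = 0.164) and 0.89 for the acetyltransferase Ep300 (adjusted p = 0.165). Without normal diet libraries 1 and 2 these were 0.36 and 0.39.

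Clock genes, several of which corticosteroids also reach, gave the only calls in these lists outside the alternative settings. In liver Per3 and Hlf passed among 17 tested, both higher on high salt, where 1.00% of all liver genes passed. Hlf, an output transcription factor of the clock, stood at 24.0, 21.7, 25.8 and 21.8 CPM on the normal diet and at 48.7, 47.5, 35.5 and 40.5 CPM on high salt (log2 fold change 0.88, SE 0.15, edgeR adjusted p = 0.0364). Per3 stood at 11.6 to 18.3 and at 25.7 to 29.0 CPM (log2 fold change 0.88, SE 0.16, edgeR adjusted p = 0.0440). Hlf was called in 12 and Per3 in 11 of 19 alternatives. Neither passed with HS5 and HS6 summed, at 0.83 for Hlf and 0.90 for Per3 (edgeR adjusted p = 0.160 and 0.161). Neither passed without normal diet libraries 1 and 2 together, at 0.86 and 0.68 (edgeR adjusted p = 0.0991 and 0.0954). Leaving out any single one of normal diet 1, normal diet 2, HS5, HS6 and HS8 also ended both calls, with estimates of 0.82 to 0.91 for Hlf and 0.77 to 0.91 for Per3. Leaving out HS7 ended the call of Per3 alone. Nfil3, a clock-controlled repressor, stood at 12.5 to 34.7 CPM and at 7.84 to 9.17 CPM, with edgeR adjusted p = 0.0597. It was called in 6 of 19 alternatives, among them DESeq2 (adjusted p = 0.000462) and the fit without normal diet libraries 1 and 2 (edgeR adjusted p = 0.0132). Those fits called 1084 and 52 of all liver genes. In kidney 0 of 18 clock genes were called, as were 0% of all kidney genes. The lowest p there was that of Ciart (0.87, unadjusted p = 0.0338, edgeR adjusted p = 0.9996). Of the 18, 1 had an unadjusted p under 0.05 and 1 had diets that did not overlap, against 2.01% and 6.92% of all kidney genes. The hour at which tissue was taken is not in the labels.

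Several targets differed between the tissues. On the normal diet 4 of 7 genes passed between liver and kidney, where 65.1% of all 16633 genes passed, so the count is no larger than that of genes at large. Tat was higher in liver by 13.16 on the log2 scale (SE 0.99, edgeR adjusted p = 2.23e-08), a value that depends on the prior count, as kidney had few counts. Zbtb16 was higher in liver by 3.71 (SE 0.94, adjusted p = 0.00285) and Tsc22d3 by 1.88 (SE 0.43, adjusted p = 0.00127). Sgk1 had a log2 fold change of -1.71 and so was higher in kidney (SE 0.35, adjusted p = 0.000573).

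Neither receptor passed between the tissues on the normal diet. Nr3c1 had a log2 fold change of -0.41, liver against kidney (SE 0.20, edgeR adjusted p = 0.0795), and passed in 6 of 22 alternatives, among them upper quartile scaling at -0.73 and RLE scaling at -0.49. Nr3c2 had 0.23 (SE 0.20, adjusted p = 0.312), and -0.08 with upper quartile scaling. On high salt 5 of 7 genes passed between the tissues, where 62.7% of all genes passed, and Nr3c2 was among them. It was higher in liver by 0.73 on the log2 scale there (SE 0.20, edgeR adjusted p = 0.0051), and passed in 21 of 22 alternatives. The exception was upper quartile scaling, at 0.42 (edgeR adjusted p = 0.0544). Upper quartile scaling moved the median of all genes between the tissues from 0.05 to -0.25 on high salt, and from 0.02 to -0.28 on the normal diet. On the normal diet Fkbp5 had 1.36 (SE 0.60, edgeR adjusted p = 0.0594), and 2.14 without normal diet liver libraries 1 and 2 (adjusted p = 0.00074). On high salt Fkbp5 had 0.35. These folds come from libraries scaled together, so they differ from ratios of the CPM values above, which were scaled within each tissue. The tissues were quantified in separate tables, so tissue and processing cannot be told apart.

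Per kilobase of exon on the normal diet, the order in kidney was Hsd11b2 (21.4 CPM per kilobase), Nr3c1 (10.9), Tsc22d3 (9.72), Sgk1 (9.27), Fkbp5 (2.82), Nr3c2 (1.75), Zbtb16 (0.24) and Tat (0.09). The neighbours Nr3c1, Tsc22d3 and Sgk1 overlapped there, as did Zbtb16 and Tat. Hsd11b2 lay above Nr3c1 in every library, and Fkbp5, at 1.95 to 4.53 CPM per kilobase, lay just above Nr3c2, at 1.58 to 1.88. In liver the order was Tat (570), Tsc22d3 (24.4), Nr3c1 (5.59), Fkbp5 (5.14), Zbtb16 (2.29), Sgk1 (1.94) and Nr3c2 (1.40). Tat lay above Tsc22d3 in each of these libraries, and Tsc22d3 above Nr3c1. Each later neighbour in the order overlapped the one before it.

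The genes whose pattern over the 14 libraries was nearest were listed for Sgk1, Fkbp5 and Nr3c2, by the mean absolute difference of log2 profiles centred on each gene's own mean, among 11428 genes. Nearest to Sgk1 were Mageh1 (0.25), Tlr3 (0.27) and Anxa1 (0.28), where the median gene lay at 0.92. Nearest to Fkbp5 were Map3k5 (0.32), Myo7a (0.37) and Lrrc8a (0.37), with a median of 0.84. Nearest to Nr3c2 were Rabep1 (0.10), Isoc1 (0.11) and Polr2b (0.11), with a median of 0.51. The likeness takes in the difference between the tissues as well as the libraries within them.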

How the data were processed

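Liver and kidney RNA was sequenced from SMARTer mRNA libraries, per the labels' protocols. The submitters' processing notes name Partek 7.0, STAR 2.5.3a, DESeq2 and the build mm10, with no roles. The authors deposited expected counts per gene, per the file headers, and a normalized signal per gene whose scaling is not given in the sources used here. Groups follow the tissue and diet that the labels give. The number of columns of samples left unused was 0.

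After rounding, each tissue was tested by the quasi-likelihood test of edgeR 4.0.16 (R 4.3.3, TMM scaling, filterByExpr), and for the interaction and the tissues in 1 fit over the 17600 genes of both tables. Benjamini-Hochberg adjusted p-values, over all genes tested, under 0.05 were called. Intervals are 95% intervals of the fold change. Replicate spread limits most genes more than depth does, with a common biological coefficient of variation of 0.31 (liver) and 0.30 (kidney). A gene at 0 is known only to lie under 3 counts, and such a floor covers counting error only. The fits were tested on simulated counts.

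The 8 genes, the lists, tests and alternatives were chosen with earlier results of these data known. All 8 genes were named and, of each list, the calls, the 3 lowest p-values per tissue and Scnn1a, Scnn1b, Scnn1g, Per1, Hsd11b1, Serpina6, Pck1 and Tdo2. One gene that this rule names is not reported here. The comparison of the tissues on high salt was added after values had been seen. Alternatives were DESeq2 1.42.0, scaling by RLE or upper quartile, limma 3.58.1 on the deposited signal (log2 of the value plus 1 or 0.1), a minimum of 10 counts in every library, no filter, no mitochondrial genes, HS5 and HS6 summed, normal diet liver libraries 1 and 2 left out, all 14 libraries in 1 fit, a kidney replicate block, and each library left out.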

Additional observations from a re-analysis of the deposited data

Results flagged for a closer look

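In the liver groups of 4 libraries, a library was singled out when its gap to the nearest of the others was too large a share of the group's range (Dixon's 95% limit). Of the 53 liver groups checked, 7 met this, where chance alone gives about 1 in 20 (2.65). Among the 8 genes, Fkbp5 in HS8 stood at 13.5 CPM, against 31.4 to 34.8 CPM in the other high salt libraries. Tat in HS7 stood at 234 CPM, against 944 to 995 CPM.

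HS7 was also apart for 3 other genes of the corticosteroid lists. Hsd11b1 stood at 765 CPM there, against 487 to 491 CPM in the other high salt libraries. Tdo2 stood at 1097 CPM, against 726 to 753 CPM, and Pck1 at 1092 CPM, against 1419 to 1468 CPM. On the normal diet, Mt1 in library 4 stood at 1037 CPM, against 13.1 to 26.6 CPM, and Abcb1a in library 3 at 2.70 CPM, against 0.95 to 1.24 CPM. As HS5 and HS6 had nearly the same values, a high salt group has a narrower range than 4 unlike libraries would give. The cause of these gaps was not tested.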

How the results depend on the processing

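Of the 8 genes, 0 were called for the diet in either tissue or for the interaction under every alternative run, and 3 to 6 were called between the tissues on the normal diet, against 4. On high salt 3 were called with at least 10 counts in every library, against 5, as fewer genes were then tested. The number of all genes called did not hold. In liver it was 12 with HS5 and HS6 summed, 52 without normal diet libraries 1 and 2 together, 260 with all 14 libraries in 1 fit, 1084 with DESeq2 and 12 to 765 leaving out 1 library, against 152. In kidney DESeq2 called 13 genes, against 0. The interaction had 2 calls with at least 10 counts in every library, 1 without normal diet liver libraries 1 and 2 together, 142 with DESeq2 and 0 to 7 leaving out 1 library, against 0.

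Uncalled estimates that changed sign were as follows. Zbtb16 in liver was 0.25 with limma at a pseudocount of 1 and 0.26 at 0.1. Without normal diet liver libraries 1 and 2, Per1 in liver was -0.21, Hsd11b1 in liver 0.45 and Nr3c2 between the tissues -0.015. With upper quartile scaling the last was -0.078. The interaction of Tsc22d3 was -0.033 with HS5 and HS6 summed and -0.0002 with DESeq2. Leaving out 1 library, liver ranges were -0.055 to 0.23 for Nr3c1, -0.61 to 0.38 for Zbtb16 and -0.29 to 0.14 for Hsd11b1. Kidney ranges were -0.11 to 0.50 for Hsd11b2, -0.84 to 0.28 for Zbtb16, -0.014 to 0.31 for Scnn1b, -0.12 to 0.023 for Scnn1g and -0.10 to 0.65 for Hsd11b1. Interaction ranges were -0.40 to 0.44 for Tsc22d3 and -0.46 to 0.64 for Zbtb16. Causes were not tested. A fit that leaves a kidney group with 2 libraries has few degrees of freedom.

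With the replicate number as a block, 0 kidney genes passed, and Sgk1 had -0.22 and Tsc22d3 -0.40. Libraries of the same number deviated together with correlations of 0.49, 0.46 and -0.13 across genes, and not every library was closest to its own number, so they share only a number. No paired analysis was possible in liver because the high salt columns carry numbers that match no title.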
